A study of Mus musculus with 4 samples.

Results

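The regions described here are the m6A peaks that the entacapone list placed in protein-coding genes to which no vehicle peak was assigned. A peak was given to the protein-coding gene whose span holds its midpoint, the shorter gene where spans overlap, and a gene entered when it held at least 1 entacapone midpoint and no vehicle midpoint. The spans of 55 genes of the set do hold a vehicle midpoint, which went to a shorter overlapping gene. The rule gave 3513 of the 31856 entacapone peaks (11%), in 2468 of the 21887 protein-coding genes (11.3%), or 23% of the 10736 with an entacapone peak. The opposite rule gave 610 of the 22860 vehicle peaks, in 536 genes, 2.45% of all and 6.09% of the 8804 with a vehicle peak. A further 8268 genes held peaks of both lists. The members were chosen by the presence and absence of peaks in the lists themselves. For that reason the number of peaks, their fold and their width are descriptions and are not tested.

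Inguinal white adipose tissue was taken at 23 weeks of age from male C57BL/6 mice with diet-induced obesity (DIO) on a high-fat diet, treated with Entacapone or with vehicle. Entacapone-treated mice gave 1 m6A immunoprecipitate (IP) library and 1 input library, and vehicle-treated mice gave 1 of each, so that all 4 libraries share strain, sex, age and diet. The sources used here do not give the dose, the length of treatment or whether a library pools animals. With 1 library per treatment no comparison has a replicate. All intervals below are exact binomial 95% intervals over peaks, which cover counting error only, and peaks of 1 library share that library.

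N6-methyladenosine (m6A) is a methyl mark on adenosines of messenger RNA, written mainly by the METTL3 and METTL14 complex within short sequences around GAC or AAC, removed by FTO and ALKBH5 and read by YTH-domain proteins that affect splicing, decay and translation. It is known to lie mostly in long internal exons, around stop codons and in 3′ untranslated regions. In an m6A-IP experiment fragmented RNA is pulled down with an antibody and a peak marks a place where IP reads exceed input reads, so that a peak can appear or be missed with the depth of a library and the abundance of the transcript as well as with the mark. Entacapone is a catechol-O-methyltransferase inhibitor given in Parkinson's disease and has also been described as an inhibitor of FTO.

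The input libraries differed in depth, with 33164576 gene-assigned counts in the entacapone input, 1.35 times the 24548212 of the vehicle input. The depth of the IP libraries is unknown. The entacapone list was 1.39 times as long as the vehicle list, its lowest fold was 1.49 against 1.58, and 13.6% of its peaks were under fold 2, against 8.04% of vehicle peaks. The fold is the authors' value for each peak, read as IP over input. The part of depth in the result was not tested. At equal list length, with the 22860 entacapone peaks of largest fold kept (down to fold 2.39) and all vehicle peaks, genes with entacapone peaks alone numbered 1599 (7.31%) and genes with vehicle peaks alone 1784 (8.15%), so the order turned. The equal-length setting drops entacapone peaks alone, so a gene whose entacapone peaks all lie below fold 2.39 must leave the set. A gene of both lists whose entacapone peaks all lie below that fold passes to the genes with vehicle peaks alone. Under this setting the set can thus only shrink, and the genes with vehicle peaks alone can only grow, in every gene list below as well. At a fold of at least 2 in both lists, genes with entacapone peaks alone numbered 2240 (10.2%) and genes with vehicle peaks alone 784 (3.58%). At a fold of at least 4 in both lists these were 1889 (8.63%) and 1419 (6.48%).

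Sequence could be read for 26 of the 3513 peaks, those that lie wholly inside a RefSeq promoter window (assembly GRCm38.p6, 250 bases before to 50 after a start site) of their own gene. The ones shown lie entirely before that start site but inside the gene span, which begins farther upstream. Shown are the 6 such peaks that hold a word of the m6A consensus on the strand of the gene, the Zcchc18 and Pgm2l1 peaks, which have the largest fold of the 26, and those of Mfn2 and Vegfa, a mitochondrial fusion protein and a blood vessel growth factor. The 6 words searched on both strands were GGAC or GAAC, each followed by A, C or T. Those on the strand of the gene stand in capitals. The Sinhcaf peak was at chr6:148944836-148944917 (minus strand, fold 5.3), Gtf3c6 at chr10:40257595-40257644 (minus, 3.46), Cnot8 at chr11:58104161-58104300 (plus, 2.7), Fam104a at chr11:113683977-113684079 (minus, 2.26), Ube2m at chr7:13037979-13038027 (minus, 1.95) and Nek6 at chr2:38511745-38511823 (plus, 1.91). The Zcchc18 peak was at chrX:136993003-136993069 (plus, 7.14), Pgm2l1 at chr7:100227392-100227476 (plus, 7.14), Mfn2 at chr4:147904787-147904872 (minus, 2.93) and Vegfa at chr17:46025230-46025283 (minus, 1.8).
Sinhcaf: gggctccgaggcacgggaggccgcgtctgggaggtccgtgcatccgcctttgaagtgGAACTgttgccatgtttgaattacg
Gtf3c6: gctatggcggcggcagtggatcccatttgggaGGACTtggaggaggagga
Cnot8: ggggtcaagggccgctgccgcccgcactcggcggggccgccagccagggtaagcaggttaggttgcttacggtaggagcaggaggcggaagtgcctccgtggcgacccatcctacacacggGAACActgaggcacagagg
Fam104a: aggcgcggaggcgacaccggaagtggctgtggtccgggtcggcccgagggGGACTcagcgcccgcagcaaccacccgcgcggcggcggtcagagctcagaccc
Ube2m: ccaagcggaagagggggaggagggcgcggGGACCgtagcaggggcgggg
Nek6: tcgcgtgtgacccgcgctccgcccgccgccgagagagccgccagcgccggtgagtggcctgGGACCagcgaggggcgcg
Zcchc18: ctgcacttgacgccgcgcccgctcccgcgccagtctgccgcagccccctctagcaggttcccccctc
Pgm2l1: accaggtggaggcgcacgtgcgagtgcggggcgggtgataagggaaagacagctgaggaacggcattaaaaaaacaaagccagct
Mfn2: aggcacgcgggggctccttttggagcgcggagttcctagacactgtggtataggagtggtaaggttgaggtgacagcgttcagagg
Vegfa: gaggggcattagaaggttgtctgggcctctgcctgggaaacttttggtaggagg

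On the strand of the gene 10 of the 26 peaks (38.5%) held at least 1 of the 6 words, against 33.3% of the same stretches over all 32851 promoter windows. On the other strand 9 peaks (34.6%) did, against 33.3%. Both shares are near those of promoters at large.

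Genes of the set mostly carried 1 peak. Of the 2468 genes 1719 (69.7%) held 1, 539 (21.8%) held 2, 155 (6.28%) held 3 and 55 (2.23%) held 4 or more, with a mean of 1.42 and a maximum of 9. Genes with peaks of both lists averaged 3.01 entacapone peaks and 25% of them held 1, whereas the 536 genes with vehicle peaks alone averaged 1.14 and 88.1% of them held 1. Where neighbouring peaks shared a gene of the set, the median gap between them was 3474 bases, and 317 of 1045 gaps (30.3%) were within 1 kb.

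**Figure D1:**
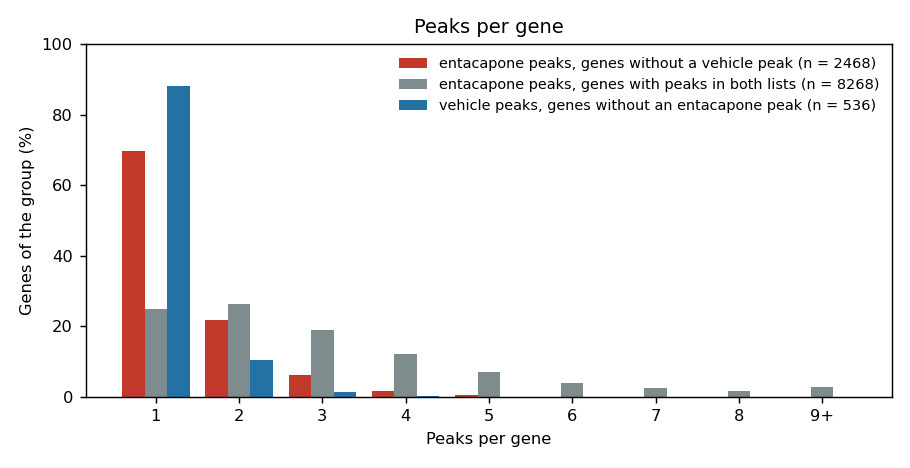
Number of peaks per gene (x axis) against the percent of genes of each group (y axis), for genes with entacapone peaks and no vehicle peak, genes with peaks of both lists and genes with vehicle peaks alone. Genes of the set are at 69.7% for 1 peak and reach 9 peaks.

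The genes with the most peaks differ in how the peaks are spread. Zfp831, a zinc finger gene, held 9 peaks with folds between 3.57 and 6.34, in a span of 112 kb. Ttn, the giant sarcomere protein of muscle, held 9 peaks with folds between 1.71 and 7.28, and 6 of the 9 lie within 10 kb of its 3′ end. Adamts5, a protease that cuts aggrecan, held 8 with folds between 1.53 and 6.77. Klhdc7a, a kelch-domain gene, held 7 in a span of 5.85 kb, and all of their folds lie between 1.54 and 1.91. These genes thus reach high peak counts both with peaks of low fold alone and with peaks of mixed fold.

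Cmip and Ccdc91 held 6 peaks each. The Cmip folds were 5.3 for 3 peaks and 6.62, 2.73 and 1.69 for the others, and the Ccdc91 folds lay between 1.56 and 2.59. Of the genes with 5 peaks, Man1a, a Golgi mannosidase, had folds of 7.14, 7.28, 5.1, 3.97 and 1.82. Eomes, a transcription factor of cytotoxic lymphocytes, had folds of 5.81, 4.7, 4.59, 5.72 and 4.12 in a span under 8 kb, the second last of these from a peak 698 bases wide. Tnik, a kinase, had folds between 3.35 and 6.63, and Ppp2r3a, a regulatory subunit of protein phosphatase 2A, between 2.65 and 4.61.

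Peaks of the set were narrow. Their median width was 87 bases (quartiles 64 and 121, maximum 715), against 84 for entacapone peaks without an overlapping vehicle peak in genes of both lists and 155 for those with one. The share under 100 bases was 62.4% (interval 60.8 to 64.0), against 64.5% and 25.7%. In width the set thus lies near the other entacapone peaks that no vehicle peak overlaps. The widest peaks were in Fam20c, a kinase of the secretory pathway (715 bases, fold 1.69), Arhgap29, a GTPase activator (704 bases, fold 1.59), Eomes (698 bases, fold 5.72), B3galt2, a galactosyltransferase (519 bases, fold 1.6), and I830077J02Rik (504 bases, fold 5.82).

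The median fold was 2.85 in the set (quartiles 1.95 and 4.45, range 1.49 to 12.5), against 2.98 for the peaks without an overlapping vehicle peak in genes of both lists and 2.95 for those with one. The share under fold 2 was 27.1% (25.6 to 28.6), against 17.0% (16.2 to 17.8) and 11.3%. The share at fold 4 or more was 31.2% (29.7 to 32.8), against 28.8% and 23.4%. Both shares were larger in the set than in these other entacapone groups. Vehicle peaks in genes of vehicle peaks alone, whose folds come from the other list, had a median of 4.04, with 4.43% under fold 2 and 50.3% at fold 4 or more, so a large share of high folds was not particular to the set. Every peak of 561 genes (22.7%) was under fold 2, and 896 genes (36.3%) held a peak of at least 4.

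Some of the high folds are values that many peaks of the list share to the last digit. A fold shared by at least 50 peaks of the list was found for 52.8% of member peaks at fold 4 or more, 30.2% of those from 2 to 4 and 0.0% of those under 2. At fold 4 or more it was also found for 44.3% of entacapone peaks without an overlapping vehicle peak in genes of both lists and, counted in its own list, for 40.7% of vehicle peaks in genes of vehicle peaks alone. The commonest was 5.3, with 70 member peaks. Such shared values include folds of genes named below, among them 5.96 in Csmd1, 6.12 in Cpt1a, 4.59 in Pecam1, and 5.96 and 6.62 in Timp1. The 10 largest folds were each shared by at most 7 peaks of the list. They were 12.5 in Kcna7, a potassium channel subunit, 11.7 in Rpgrip1, a ciliary protein of photoreceptors, and in Gm4841, 11.4 in Cacng6, a calcium channel subunit, 11.1 in Rragb, a Rag GTPase of amino acid sensing, 10.8 in Kcnq5, a potassium channel, and in Gm42372, 10.7 in Ly6g6d and in Ccbe1, a lymphatic growth gene, and 10.6 in H2bc22, a histone.

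**Figure D2:**
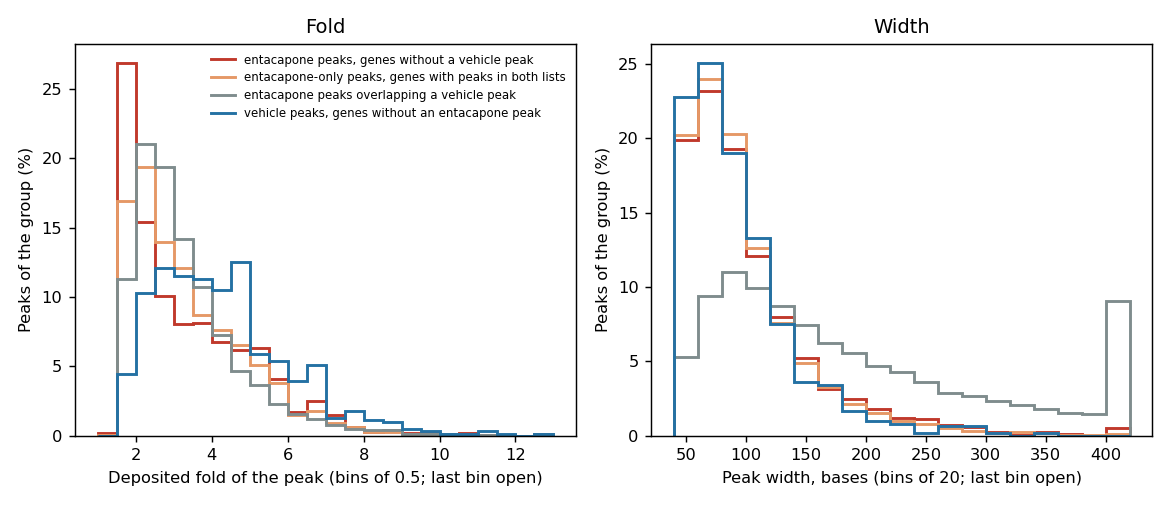
Distribution of the authors' fold (left, x axis, IP over input) and of width in bases (right, x axis) as percent of the peaks of each group (y axes). The set has 27.1% of peaks under fold 2, against 17.0% of entacapone peaks without an overlapping vehicle peak in genes of both lists, and median widths are 87 and 84 bases.

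By length of span, the set holds genes of all sizes. The median length was 21.4 kb (quartiles 8.6 and 47.9) in the set, 28.7 kb in genes with peaks of both lists, 20.9 kb in genes with vehicle peaks alone and 9.31 kb in genes with no peak. The set took 11.3% of all protein-coding genes. It took 6.54% of genes under 5 kb, and between 11.3% and 13.9% of those in each longer bin. Genes with peaks of both lists made up 14.5% of genes under 5 kb and 60.5% of those from 100 to 200 kb, so that among the 13083 genes without a vehicle peak, of which the set took 18.9%, the share of the set was 7.74% under 5 kb and 31.4% from 100 to 200 kb. At 200 kb or more the shares were lower again, 23.8% for the set among genes without a vehicle peak and 49.2% for genes of both lists.

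**Figure D3:**
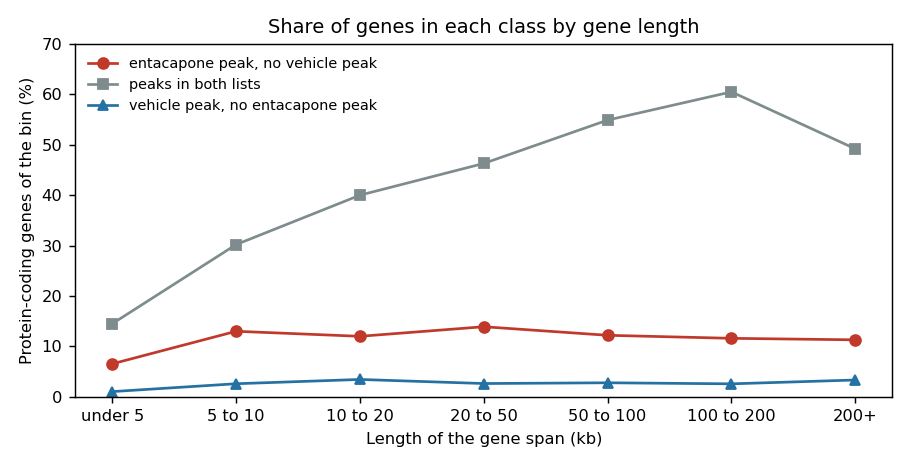
Length of the gene span in kb (x axis, 7 bins) against the percent of the protein-coding genes of each bin (y axis) that hold entacapone peaks and no vehicle peak, peaks of both lists, or vehicle peaks alone. The set stays between 11.3% and 13.9% in all bins of 5 kb or more.

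Fold and length moved together within the set, and also in other entacapone peaks. From peaks under fold 2 to those at 4 or more, the median gene length went from 17.3 to 33.4 kb in the set. It went from 36.1 to 66.0 kb for entacapone peaks without an overlapping vehicle peak in genes of both lists. For those with one it went from 28.2 to 41.2 kb. The median fold of member peaks was 2.42 in genes under 5 kb and 4.59 in genes of at least 200 kb, with 2.5, 2.49, 2.81, 3.39 and 3.76 in the bins between. Among the longest genes were Csmd1, a complement control protein (fold 5.96), Robo2, an axon guidance receptor (4.63), Pcdh15, a protocadherin of hair cells (4.12), and Rbfox1, a splicing factor (6.63). The peaks of Rbfox1 and Robo2 lie over 100 kb from either end of the gene. The shortest genes were the histones H4c1 (5.61), H2ac18 (5.83) and H1f2 (2.28), the protamine Prm2 (4.13) and the small heat shock protein Hspb3 (5.61).

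Member peaks lay within 1 kb of either end of the gene more often than other entacapone peaks did. The strand was known for 2781 of the 3513 peaks. The shares by position given here, and by fold below, were read in genes of at least 5 kb. Within 1 kb of the 5′ end lay 17.4% of member peaks (15.9 to 18.9), against 11.1% (10.3 to 11.8) of entacapone peaks without an overlapping vehicle peak in genes of both lists and 7.54% of those with one. Within 1 kb of the 3′ end lay 20.8% (19.2 to 22.5), against 11.7% (10.9 to 12.5) and 16.6%. The vehicle peaks in genes of vehicle peaks alone gave 13.8% (10.7 to 17.4) and 21.0%. In genes of 20 to 50 kb alone, the 5′ share was 15.3% (12.9 to 17.9) for member peaks and 11.8% (10.4 to 13.3) for the entacapone peaks without an overlapping vehicle peak. By part of the span the order at the 3′ end was another: the last of 10 equal parts held 38.1% of member peaks, against 29.5% of entacapone peaks without an overlapping vehicle peak and 40.9% of those with one.

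**Figure D4:**
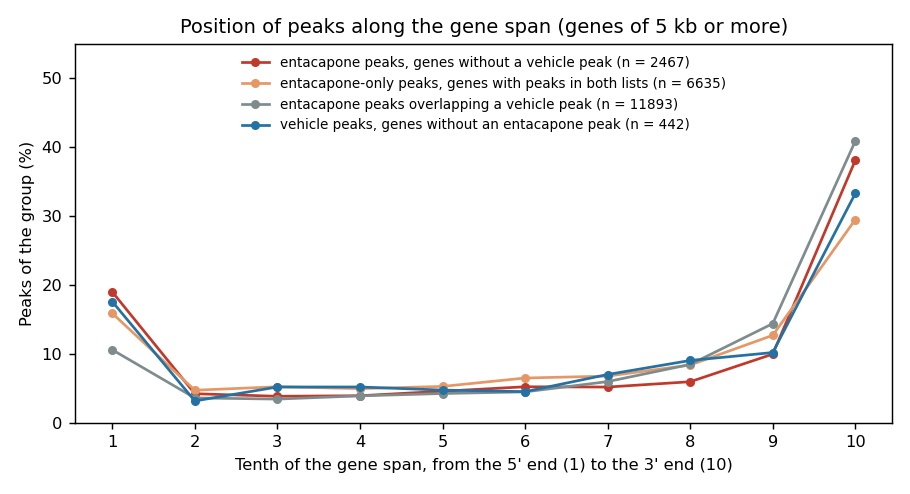
Position of peaks in 10 equal parts of the gene span from the 5′ end to the 3′ end (x axis) against the percent of the peaks of each group (y axis), in genes of 5 kb or more with a known strand. Member peaks have 19.0% in part 1 and 38.1% in part 10, against 10.6% and 40.9% of the entacapone peaks that overlap a vehicle peak.

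Position also differed with fold. Within 1 kb of the 3′ end lay 25% of member peaks under fold 2 and 13.9% of those at fold 4 or more, and within 1 kb of the 5′ end 19.4% and 13.5%. Genes with member peaks at the 5′ end include Prkaca, the catalytic subunit of protein kinase A (75 bases from it), and Elovl6 (103 bases). Genes with member peaks at the 3′ end include Adipor1, an adiponectin receptor (61 bases), and Grb14, an insulin receptor adaptor (146 bases).

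Among genes of lipid storage and use, the set held several enzymes of fat synthesis. Of 22 genes of fatty acid and triglyceride synthesis 8 (36.4%) were in the set and 0 had vehicle peaks alone, against 11.3% and 2.45% of all protein-coding genes. Their 12 peaks had a median fold of 3.44, against 2.85 for all member peaks. Elovl6, an elongase of fatty acids, had 4 peaks with folds of 4.59, 3.27, 3.51 and 4.48, the related Elovl5 1 of 4.65 and Elovl3 1 of 4.45. Gpam, the acyltransferase of the opening step of triglyceride synthesis, had 2.51 and 6.12, Agpat2, which acts after it, 3.38, and Dgat2 and Dgat1, which complete the triglyceride, 2.72 and 2.42. Srebf1, a transcription factor of lipogenesis, had 1.7. The folds of Elovl3, Dgat2, the larger Gpam peak and all Elovl6 peaks but that of 4.48 are each shared by at least 50 peaks of the list. At equal list length, 7 of the 22 were in the set and 0 had vehicle peaks alone, against 7.31% and 8.15% of all genes. At a fold of at least 4 in both lists these were 6 (27.3%) and 2 (9.09%), against 8.63% and 6.48% of all genes.

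Lipolysis gave peaks of low fold. Of 20 genes 4 (20%) were in the set and 0 had vehicle peaks alone, against 11.3% and 2.45% of all protein-coding genes. These are 4 of the 17 lipolysis genes with an entacapone peak, near the 23% over all such genes. Lipe, hormone-sensitive lipase, had 1 peak of fold 1.66 and Abhd5, the activator of the adipose lipase, had 1.74 and 1.55. Prkaca had 1.73 and Adrb3, the beta3 adrenergic receptor of fat cells, 2.29. At equal list length, 0 were in the set and 3 had vehicle peaks alone. The 0 follows from the cut at fold 2.39, as the largest fold of these members was 2.29. At a fold of at least 2 in both lists the numbers were 3 and 0.

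Fatty acid oxidation had 5 of 21 genes (23.8%) in the set and 0 with vehicle peaks alone, beside the same 11.3% and 2.45%, and 4 and 1 at equal list length. Cpt1a, which admits fatty acids to mitochondria, had folds of 6.12, 1.71 and 1.94, the first of these 295 bases from the 5′ end. Acadl had 3.57 and 1.84, Hadha 2.25 and 2.89, Decr1 3.42 and 5.97 and Etfdh 1.84, all enzymes of the oxidation of fatty acids or its electron transfer. White adipocyte genes had 5 of 20 (25%) in the set and 0 with vehicle peaks alone: Lpl, lipoprotein lipase, had 5.18, Adipor1 3.84, Aqp7, a glycerol channel, 1.69 and 3.38, Cebpb, an adipogenic factor, 1.81, and Slc2a4, the insulin-regulated glucose transporter, 1.69 and 1.64. The adipocyte genes numbered 3 in the set and 1 with vehicle peaks alone at equal list length, and at a fold of at least 4 in both lists these were 1 and 2, so that the order turned. As for the labelled tissue, input counts could not be paired with gene names, and 13 of these 20 adipocyte genes held an entacapone peak and 8 a vehicle peak.

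Signalling and m6A genes were near the background of 11.3% when counted over all protein-coding genes. From insulin to FOXO1, 4 of 32 (12.5%) were in the set, among them Gsk3a (1.72 and 1.79), Grb14 (1.73) and Pck1, a gluconeogenic enzyme (1.93). Of 22 m6A writers, erasers and readers 3 (13.6%) were: Mettl3 (4.26), Mettl14 (2.66) and Hnrnpc (1.7 and 2.36). The same list had 16 genes with peaks of both lists, against 8268 of all 21887 protein-coding genes. Of 14 genes of catecholamine synthesis, breakdown and uptake, 2 (14.3%) were: Maob, a monoamine oxidase (1.91 and 1.97), and Slc18a2, the vesicular transporter (5.61). The insulin list had, at equal list length, 1 gene in the set and 4 with vehicle peaks alone, the m6A list 2 and 2, and the catecholamine list 1 and 3. At a fold of at least 2 in both lists the insulin list had 2 and 0, the m6A list 3 and 0, and the catecholamine list 1 and 3. At a fold of at least 4 in both lists these were 4 and 0, 1 and 4, and 1 and 0.

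Mitochondrial and protein turnover families gave peaks of low fold. Of 78 mitochondrial ribosomal protein genes 27 (34.6%) were in the set and 2 (2.56%) had vehicle peaks alone. Their 32 peaks had a median fold of 1.81 and 20 were under fold 2. Of 28 peaks with known strand, 19 lay within 1 kb of the 3′ end. That count takes in genes of any length, so it is unlike the shares given above for genes of at least 5 kb. The median length of all 78 genes was 7.69 kb. Mrpl1 (5.81) and Mrpl33 (4.52) had the largest. At equal list length, which can only lower the count in the set and raise that of vehicle peaks alone, the order turned, with 5 and 13. At a fold of at least 2 in both lists it did not, with 14 in the set and 2 with vehicle peaks alone.

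Of 39 proteasome subunits 11 (28.2%) were in the set and 0 had vehicle peaks alone. Their median fold was 1.88, with the largest in Psmd14 (4.59), Psma6 (4.45) and Psma5 (4.14). The proteasome numbers were 5 and 1 at equal list length. Nuclear oxidative phosphorylation genes gave 7 of 61 (11.5%), among them Ndufv2 (4.08) and Ndufs8 (3.19). Cytosolic ribosomal proteins gave 7 of 77 (9.09%), with 6 of 7 peaks under fold 2, and 1 gene with vehicle peaks alone. Their order turned at equal list length, with 0 in the set and 3 with vehicle peaks alone. The 0 follows from the cut at fold 2.39, as the largest fold of these members was 2.23. At a fold of at least 2 in both lists the numbers were 2 and 2.

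Potassium channels carried higher folds than the set as a whole, as some other lists did. Of 94 genes 12 (12.8%) were in the set, near the background, and 0 had vehicle peaks alone. Their 21 peaks had a median fold of 4.59 and none was under 2. The value 4.59, found in Kcna7 and Kcnq5, is shared by 232 peaks of the list. The median was 5.1 for G protein-coupled receptors, 4.78 for nerve genes and 3.92 for keratins, also with none under 2. After Kcna7 and Kcnq5 the largest potassium channel folds were in Kcnma1, a calcium-activated channel (8.88), and Kcnk1, a leak channel (6.81). Kcnj11, the pore of the ATP-sensitive channel, had 4.11. Of 19 peaks with known strand, in genes of any length, 9 lay within 1 kb of the 3′ end and 0 within 1 kb of the 5′ end.

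Markers of other cell types of fat tissue were also in the set. In bulk tissue, fewer cells of a type and less RNA per cell cannot be told apart, and the part of cell makeup in these peaks was not tested. Endothelial genes gave 6 of 16 (37.5%) and 0 with vehicle peaks alone, against 11.3% and 2.45% of all protein-coding genes, which are the background for the cell type lists that follow. Cdh5, the cadherin of endothelial junctions, had 5 peaks with folds between 1.53 and 2.08, Pecam1 had 1.58, 2.89, 4.59 and 4.59, and Tek, the angiopoietin receptor, 4.14, 2.82 and 6.1. Cldn5 (1.73 and 1.69), Emcn (2.54) and Esam (1.84) made up the rest. The endothelial numbers at equal list length were 3 and 2, where 7.31% and 8.15% of all genes were called.

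Fibroblast and matrix genes gave 8 of 26 (30.8%) and 0 with vehicle peaks alone. Col6a1 had 5 peaks with folds between 1.83 and 2.28, Col6a2 had 2.15, 2.14 and 1.97, and Col1a2 2.93 and 2.02, all collagen chains. Timp1 had 5.96 and 6.62 and Timp3 5.36 and 5.96, both inhibitors of metalloproteinases. Dcn (3.63), Lum (1.9 and 2.14) and Postn (1.97) are matrix proteins. The matrix genes numbered 4 in the set and 2 with vehicle peaks alone at equal list length. At a fold of at least 4 in both lists their order turned, with 2 in the set and 5 with vehicle peaks alone.

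Lymphocyte genes gave 7 of 25 (28.0%) and 1 with vehicle peaks alone. The T cell genes Cd3e (3.34 and 2.19), Cd3g (2.53), Cd4 (2.56 and 2.46), Lck (2.78), Zap70 (3.92) and Foxp3 (4.7) were in the set with the B cell gene Ms4a1 (1.69 and 4.05). At equal list length 7 were in the set and 5 had vehicle peaks alone, and at a fold of at least 4 in both lists these were 2 and 8, so that here too the order turned.

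Nerve and Schwann cell genes gave 4 of 12 (33.3%) and epithelial genes of skin and gland 5 of 14 (35.7%), each with 0 with vehicle peaks alone. Sox10 (4.78 and 4.79), Erbb3 (4.12), Pmp22 (5.7) and Ngfr (3.09) are the nerve genes. Krt8 (5.9), Cldn4 (4.33), Krt10 (3.92 and 2.88), Esrp1 (3.57) and Epcam (2.45) are the epithelial genes. None of the 11 peaks in these nerve and epithelial genes was under fold 2.

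Other lists lay on both sides of the background of 11.3%. Skeletal muscle genes gave 3 of 20 (15.0%), Ttn, Cacna1s and Mb, with 1 gene of vehicle peaks alone. Macrophage genes gave 3 of 27 (11.1%), Itgax, C1qa and C1qc, also with 1, and neutrophil genes 2 of 12 (16.7%), Lcn2 and Prtn3, with 0. The circadian list gave 3 of 20 (15.0%), among them Nr1d1 (1.59), with 0. The order turned at equal list length for muscle (3 in the set and 5 with vehicle peaks alone), macrophage (0 and 4) and circadian genes (2 and 4). At a fold of at least 2 in both lists it turned for muscle (3 and 4) but not for macrophage (2 and 0) or circadian genes (3 and 2). Immediate early genes gave 1 of 25, Zfp36, with 21 in both lists, the Wnt, BMP and Notch list 1 of 33, Fzd4, with 28 in both, and the interferon list 0 of 18, with 13 in both. These 3 lists had, at equal list length, 0 genes in the set and 7, 1 and 4 with vehicle peaks alone. At a fold of at least 2 in both lists they gave 2 and 0, 2 and 1, and 0 and 2. The largest member folds of the macrophage, immediate early and Wnt, BMP and Notch lists were 2.13, 1.68 and 1.58. Their 0 at equal list length thus follows from the cut at fold 2.39, and the interferon list was at 0 from the start. Zinc finger genes with Zfp symbols gave 25 of 400 (6.25%) with 304 in both lists, and 11 with vehicle peaks alone, and at equal list length 21 and 27. Over all protein-coding genes, 8268 of 21887 were in both lists. Of the 85 Zfp genes without a vehicle peak the set took 29.4%, against 18.9% of all genes without one. At a fold of at least 2 in both lists the Zfp numbers were 25 and 15. Olfactory receptors gave 1 of 1110.

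**Figure D5:**
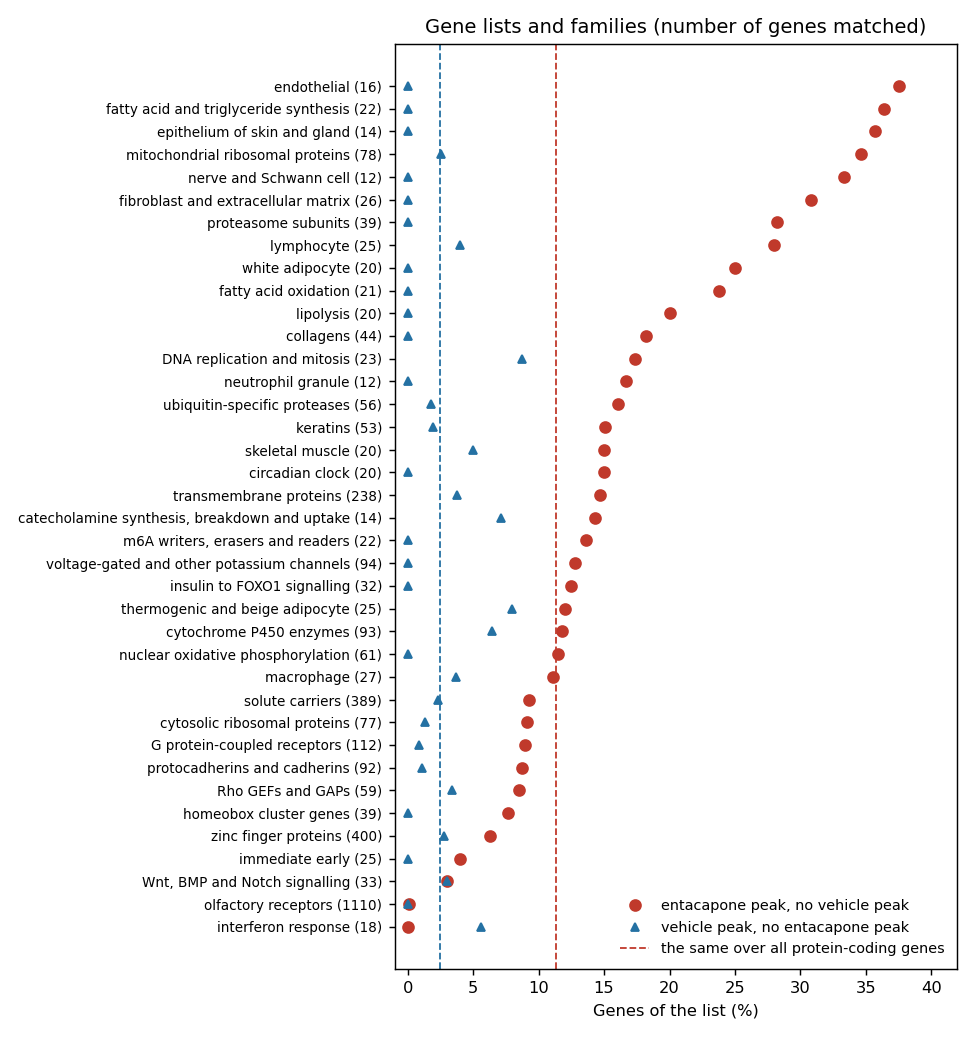
Percent of the genes of each list or family (x axis) that hold entacapone peaks and no vehicle peak, and that hold vehicle peaks alone, with the number of genes matched beside each name (y axis). Endothelial genes reach 37.5% and fatty acid and triglyceride synthesis 36.4%, against 11.3% of all protein-coding genes.

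The border of the rule runs through genes with a vehicle peak close by. A vehicle midpoint lay within 1 kb of 40 member peaks (1.14%) and within 10 kb of 615 (17.5%), and 4 member peaks overlap a vehicle peak whose midpoint fell elsewhere. A vehicle peak touches the span of 62 genes of the set, and 154 more have one within 1 kb outside. Just inside the rule, Irak4, a kinase of innate signalling, has a vehicle midpoint 2 bases beyond its span and an entacapone fold of 1.89, followed by Lyrm1 (12 bases, 2.9), Castor2 (14, 3.68), Pias4 (18, 2.99) and Eci3 (20, 4.67). Just outside it, Nupr1 holds 1 vehicle midpoint 0 bases from its end and has an entacapone fold of 1.51, followed by Prelid2 (10 bases, 2.65), Ugdh (11, 3.34), Lime1 (17, 2.26) and Abcb8 (24, 3.1).

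Genes with few vehicle peaks resemble the set in fold. With 0, 1, 2 and 3 vehicle peaks, genes averaged 1.42, 1.75, 2.59 and 3.41 entacapone peaks, with median folds of 2.85, 2.86, 2.97 and 2.96 and median widths of 87, 107, 118 and 126 bases. Over chromosomes, the share of genes in the set lay between 7.97% on X and 14.0% on chromosome 3, apart from 0 of 256 genes on Y.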

How the data were processed

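Fragmented poly(A) RNA was in part precipitated with a polyclonal anti-m6A antibody, per the labels' protocols, and TruSeq libraries were made of IP and input. Per the submitters' processing notes, TopHat2 2.1.1, MACS2 and mm10 were used. The sources used here do not give the MACS2 version or threshold. The deposited input values are raw read counts per Ensembl identifier, 37315 in all. The deposited peak lists give a chromosome, start, end and a number without a header, taken as the authors' fold of IP over input (a linear ratio). Peaks were listed per library. Whether starts count from 0 or 1 is not stated. They were taken as counted from 0, so printed starts are the listed start plus 1.

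Peak midpoints were given to protein-coding spans of RefSeq, GRCm38.p6, with strands from its promoter table (Python 3.11.15, pandas 2.3.3, numpy 2.4.6, scipy 1.17.1, matplotlib 3.10.9). Peaks overlapped when sharing at least 1 base. The assignment was tested on simulated midpoints inside genes whose span overlaps no other protein-coding span. The choice of the shorter gene where spans overlap was therefore not tested. Neither the files nor the RefSeq table pair Ensembl identifiers with symbols, so input counts of these genes and the planned input comparisons were not used here. Named genes are the 10 with the most peaks, the 10 with the largest fold, the 5 with the widest peak, the 5 longest, the 5 shortest, members of the lists given by symbol and 5 on each side of the border. A few genes that this rule names are not reported here. Family members and the promoter sequences shown were chosen after their values were seen. Members and lists were chosen with earlier results of these data known. Of 506 genes listed by symbol, 2 were unmatched.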

Additional observations from a re-analysis of the deposited data

How the results depend on the processing

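The set held 2468 genes and 3513 peaks, with 536 genes of vehicle peaks alone, a difference of 1932 genes. At equal list length (the entacapone peaks of largest fold, as many as the vehicle list holds), 1599 genes and 2106 peaks were in the set, 1784 genes had vehicle peaks alone, and the difference reversed to -185. This setting removes low-fold entacapone peaks alone, and all 1599 genes belong to the 2468. Genes of both lists that lose their entacapone peaks pass to the genes of vehicle peaks alone, so the difference can only fall. At a fold of at least 4 in both lists, 1889 genes and 2329 peaks were in the set and 1419 genes had vehicle peaks alone, a difference of 470, with 896 of the 1889 among the 2468. The cause was not tested. A fold of at least 2, a width of at least 100 bases, any overlap of at least 1 base, vehicle peaks up to 1 kb outside the span and, chosen after seeing the data, entacapone peaks not below the lowest vehicle fold each kept the 4 counts within 1.5 times, with 2179 to 2462 genes in the set. Over 9 settings, 33 of 55 values stayed close, 21 moved and 1 reversed. The planned input alternatives were not run, since identifiers could not be paired with genes. No paired analysis was possible because each treatment has 1 library of each kind. The depth of the IP libraries is unknown.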
